A study of Mus musculus with 8 samples.

Results

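A set of 10 fibrillar collagen chains (Col1a1, Col1a2, Col3a1, Col5a1, Col5a2, Col5a3, Col11a1, Col11a2, Col24a1 and Col27a1) was followed in fibro-adipogenic progenitors (FAPs) during mouse muscle regeneration. The chains were taken by gene symbol, and all 10 were found among 55276 symbols. Col2a1, the type II gene, is not part of the set and is described separately. The cells were GFP+ FAPs sorted from tibialis anterior muscle after freeze-pierce injury, and RNA-seq gave levels in TPM, a measure per transcript length that has the same total in each library. Both genotypes carried the ubiquitous, tamoxifen-inducible CAGG-CreER transgene and received tamoxifen from the day of injury. Controls were Osr1flox/+ and Osr1cKO animals Osr1flox/flox, aged 4 to 6 months. Recombination places eGFP in Osr1, so the sorted control cells had also lost 1 Osr1 allele. There were 2 libraries per genotype at 3 and at 7 days post injury (dpi), with 1 mouse per library at 3 dpi and 4 pooled mice at 7 dpi, so day and pooling cannot be told apart.

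Fibrillar collagens are secreted as trimers of procollagen chains that assemble outside the cell into the fibrils that give tissue its tensile strength. Type I, made of α1(I) and α2(I) chains, and type III, a homotrimer of α1(III), form the bulk of the fibrils in muscle connective tissue, and FAPs are a main source of them after injury. Type V chains sit inside the fibrils and set their number and diameter, type XI is the relative of type V best known from cartilage, and the α1(XXIV) and α1(XXVII) chains are minor members of the family.

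The promoters of 4 chains are shown because these chains differed from the abundant ones in how they changed between the days, and those of Col1a2 and Col3a1 because they stand for the abundant chains. The sequences are RefSeq promoters of GRCm38.p6 (mm10), 250 bases before to 50 bases after the annotated start, 5′ to 3′ on the strand of the gene. Entries were matched for 8 of the 10 chains, and Col1a1 and Col5a2 had none. Capitals mark matches on either strand to CCAAT, the box bound by NF-Y, to GGGCGG, the box bound by Sp1, and to TATAAA, the TATA box.
Col1a2, chr6:4505368-4505667, + strand: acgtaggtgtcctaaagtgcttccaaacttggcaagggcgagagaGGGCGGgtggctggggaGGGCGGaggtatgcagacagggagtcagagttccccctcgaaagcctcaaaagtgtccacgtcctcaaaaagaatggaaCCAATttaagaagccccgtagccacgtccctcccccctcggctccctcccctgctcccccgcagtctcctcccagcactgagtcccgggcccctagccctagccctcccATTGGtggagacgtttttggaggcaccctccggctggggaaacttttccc
Col3a1, chr1:45311288-45311587, + strand: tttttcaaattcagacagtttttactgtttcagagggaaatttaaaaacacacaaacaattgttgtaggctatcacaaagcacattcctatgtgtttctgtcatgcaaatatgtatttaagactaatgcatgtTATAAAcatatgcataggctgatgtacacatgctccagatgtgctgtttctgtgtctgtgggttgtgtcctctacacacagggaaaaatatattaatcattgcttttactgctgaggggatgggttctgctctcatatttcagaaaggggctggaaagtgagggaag
Col11a1, chr3:114030290-114030589, + strand: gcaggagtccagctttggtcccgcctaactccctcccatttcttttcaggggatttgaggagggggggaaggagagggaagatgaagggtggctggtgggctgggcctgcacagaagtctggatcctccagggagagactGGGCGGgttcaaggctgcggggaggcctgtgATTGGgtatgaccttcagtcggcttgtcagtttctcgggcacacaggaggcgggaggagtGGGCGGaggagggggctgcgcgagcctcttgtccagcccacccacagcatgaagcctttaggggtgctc
Col11a2, chr17:34038888-34039187, + strand: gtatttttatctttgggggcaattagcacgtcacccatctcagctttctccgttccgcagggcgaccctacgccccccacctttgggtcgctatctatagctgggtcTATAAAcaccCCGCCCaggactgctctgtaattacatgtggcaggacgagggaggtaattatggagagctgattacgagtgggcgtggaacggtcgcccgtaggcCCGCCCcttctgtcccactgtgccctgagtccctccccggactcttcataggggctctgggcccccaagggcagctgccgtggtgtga
Col24a1, chr3:145292222-145292521, + strand: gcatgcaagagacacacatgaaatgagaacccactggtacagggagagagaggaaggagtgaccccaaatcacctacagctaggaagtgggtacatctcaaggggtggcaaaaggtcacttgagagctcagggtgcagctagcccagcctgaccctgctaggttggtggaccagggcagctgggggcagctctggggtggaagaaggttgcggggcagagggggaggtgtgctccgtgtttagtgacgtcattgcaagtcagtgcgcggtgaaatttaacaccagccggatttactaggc
Col27a1, chr4:63215162-63215461, + strand: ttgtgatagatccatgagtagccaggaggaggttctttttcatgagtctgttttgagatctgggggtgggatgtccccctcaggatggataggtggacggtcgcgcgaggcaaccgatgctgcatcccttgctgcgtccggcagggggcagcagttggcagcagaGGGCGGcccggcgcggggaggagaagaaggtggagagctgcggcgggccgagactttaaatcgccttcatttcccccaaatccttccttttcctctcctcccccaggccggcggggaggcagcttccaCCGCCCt
No matches overlapped one another in these windows. CCAAT was found in 3 of the 8 promoters and in 37.4% of all 32851 promoters of this length, GGGCGG in 6 of 8 and 35.7%, and TATAAA in 2 of 8 and 13.6%. None of the 3 was in the Col24a1 window. The Col11a1 window held a reversed CCAAT whose first base was 79 bases before the start and 2 copies of GGGCGG, the first bases at 110 and 19 before it. GC content was 37.7% in the Col3a1 window and 75% in that of Col5a1, the lowest and highest of the 8, beside a median of 52.7% over all promoters.

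The libraries held 36516543 to 51096364 recovered fragments. FAP markers (8 of 8 present) summed to between 4314 and 7811 TPM, while the macrophage, endothelial, erythroid, muscle stem cell, myofiber, mural, Schwann and adipocyte lists each stayed at or below 117 TPM in each library. At 3 dpi FAP markers summed to 7811 and 6805 TPM in control and 5188 and 4314 in Osr1cKO. Ly6a was the largest part of each sum, at 5407 and 4232 against 3058 and 2020 TPM, and the list includes Osr1 itself. Of the 8 differences 3 were positive and 5 negative. At a fold change over 1.2 and an unadjusted p under 0.05, 2 of 8 were called lower and 0 higher. This rule called 3.87% of all genes lower and 2.40% higher. Osr1 was at 105 and 91.0 TPM in control and 70.7 and 71.9 in Osr1cKO libraries at 3 dpi, and at 67.6 and 71.6 against 64.4 and 60.8 at 7 dpi, lower in both Osr1cKO libraries at each day. Recombination removes only part of the gene, so a value over the whole gene is a weak check of the labels. Control replicate 1 at 3 dpi stood apart from its partner. The median absolute log2 difference between the 2 libraries was 0.24 in that group, against 0.13 to 0.15 in the other 3. Fabp4, an adipocyte lipid carrier, was at 20.6 TPM in that library and 1.38 in its partner, and Kdr, an endothelial receptor, at 16.8 and 2.25. The lists did not move as a whole. Tek (25.4 and 16.5 TPM) and Pecam1 (1.19 and 1.10) were also higher there, but Egfl7 (1.75 and 3.25), Cdh5 (0.821 and 1.12) and Emcn (0.104 and 0.160) were lower. Adipoq was at 0.0581 and 0.114 TPM, Plin1 at 0.225 and 0, Cidec at 0.130 and 0.0847, and Lep at 0. Results at 3 dpi are therefore also given without control replicate 1.

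The 10 chains together took a large share of the transcriptome. They made up 2.78% and 4.86% of all TPM in the control libraries at 3 dpi and 5.18% and 4.62% in the Osr1cKO libraries, then 5.69% and 6.25% in control and 6.20% and 5.64% in Osr1cKO at 7 dpi. The first control library at 3 dpi was the lowest of the 8. The genotypes overlapped at 3 dpi and at 7 dpi. Counted as recovered fragments rather than per length, the share was 6.43% to 14.5% over the 8 libraries.

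**Figure D1:**
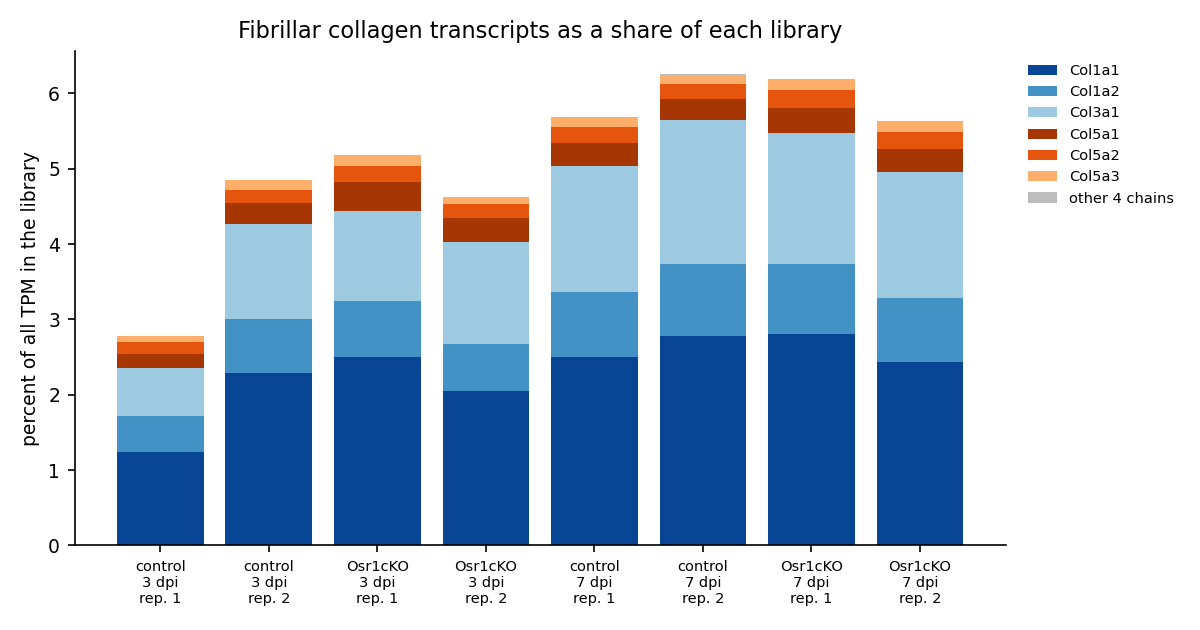
Stacked bars give the TPM of the fibrillar collagen chains as a percent of all TPM in each of the 8 libraries, coloured by chain; Col11a1, Col11a2, Col24a1 and Col27a1 are drawn together and are too thin to be seen. The bar of control replicate 1 at 3 dpi is at 2.78% and the 4 bars of 7 dpi lie between 5.64% and 6.25%.

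The makeup of this pool was more even than its size. Col1a1 held 43.2% to 48.3% of it in every library, Col3a1 23.0% to 30.7% and Col1a2 13.6% to 17.2%. The level of such shares, and the order of chains below, depend on the exon lengths, such as 6563 bases for Col1a1 and 12426 for Col1a2. Types I and III together held 85.0% to 90.4%. The 3 type V chains held 9.45% to 15%, with all 4 libraries of 7 dpi (9.45% to 11.8%) below all 4 of 3 dpi (12.0% to 15%). The 2 type XI chains held 0.00581% to 0.0139% at 3 dpi and 0.0879% to 0.150% at 7 dpi. In mean level over libraries, the order at 3 dpi in control was Col1a1, Col3a1, Col1a2, Col5a1, Col5a2, Col5a3, Col27a1, Col24a1, Col11a2, Col11a1. Within each of the 2 libraries Col1a1 stood above Col3a1 and Col3a1 above Col1a2, although their ranges over the libraries overlapped. Col24a1, Col11a2 and Col11a1 overlapped with each other, and their order differed between the 2 libraries. The other neighbours in this order did not overlap. At 7 dpi in control Col27a1 (54.8 ± 0.556 TPM, SD, n = 2) and Col11a1 (49.2 ± 0.837) followed Col5a3, then Col24a1 (15.9 ± 3.28) and Col11a2 (4.76 ± 0.477). In Osr1cKO at 7 dpi Col11a1 (80.5 ± 3.25) stood above Col27a1 (57.4 ± 4.75), with no overlap.

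**Figure D2:**
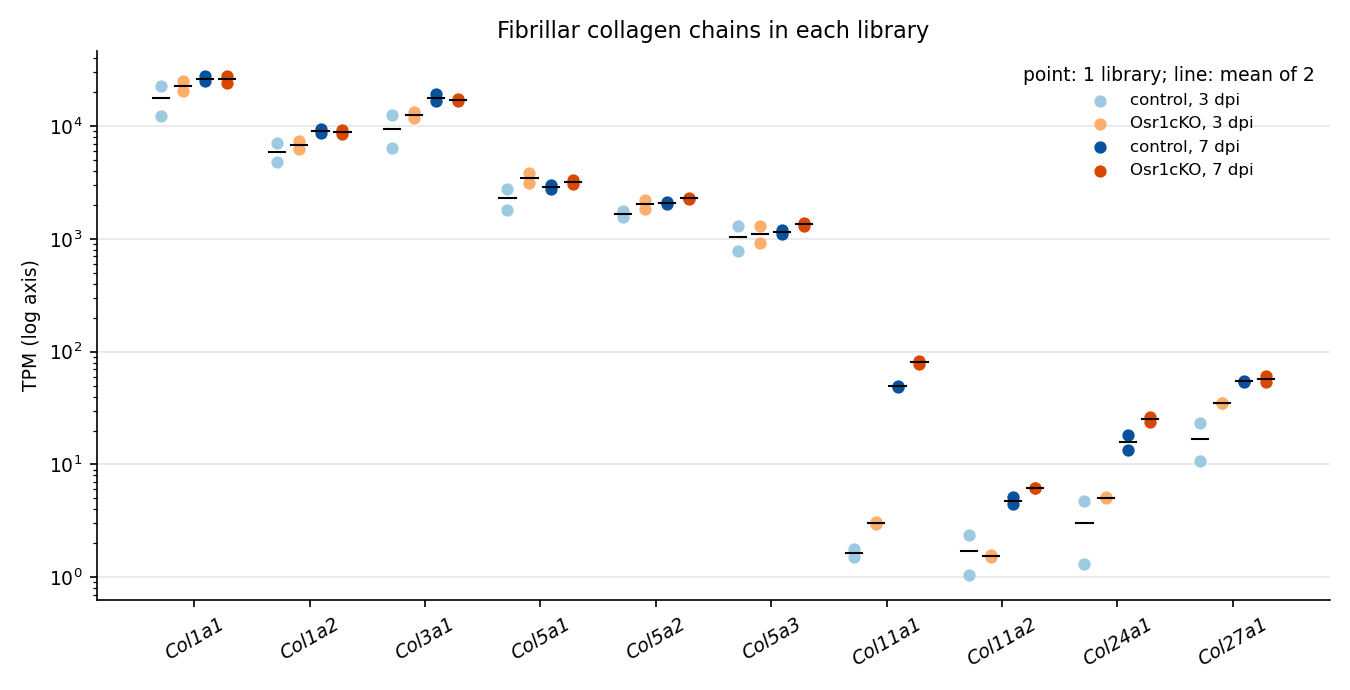
Points are the TPM of each chain in each library on a log axis, coloured by genotype and day, with a line at the mean of 2 libraries. The 6 chains of types I, III and V lie between 775 and 28083 TPM in all libraries, and Col11a1 is at most 3.09 TPM at 3 dpi and at least 48.7 TPM at 7 dpi.

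At 3 dpi, Col11a1 and Col27a1 were higher in Osr1cKO FAPs at the study's threshold for that day, and neither passed correction over all genes. The question was whether loss of Osr1 changes the collagen programme of FAPs early in regeneration. Differences are given as log2 fold changes on log2(scaled TPM + 1), Osr1cKO minus control, with a standard error (SE), from limma fitted to 15699 genes. A call needed a fold change over 1.2 and an unadjusted p under 0.05. By this rule 2.40% of all genes were higher and 3.87% lower, and 2 of 10 chains were higher and 0 lower. With a Benjamini-Hochberg adjusted p under 0.1, 0% of genes were called in either direction. In all, 9 of the 10 chains had a positive difference with a median of 0.46, beside a median of 0.01 and 51.8% positive over all genes.

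Col27a1, which encodes the α1(XXVII) chain, was at 10.7 and 23.2 TPM in control and 35.3 and 34.9 in Osr1cKO. Both Osr1cKO libraries lay above both controls, which themselves differed by more than 2-fold. The log2 difference was 1.10 ± 0.37 (SE; limma, unadjusted p = 0.0292, adjusted p = 0.774). Counted from the highest signed difference downwards, it ranked 85 of 15699 genes. Leaving out control replicate 1 brought the difference to 0.56, and leaving out its partner to 1.63.

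Col11a1, the α1(XI) chain, was at 1.51 and 1.77 TPM in control and 3.09 and 2.97 in Osr1cKO, from 239 to 498 fragments per library. The groups did not overlap and the spread within each was small. The log2 difference was 0.61 ± 0.18 (limma, unadjusted p = 0.0195, adjusted p = 0.774), and the pseudocount of 1 makes it smaller than the 1.85-fold ratio of mean TPM.

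Col24a1, the α1(XXIV) chain, stood at 1.31 and 4.69 TPM in control and 5.02 and 5.16 in Osr1cKO, and its difference of 0.75 ± 0.46 was not called. Leaving out control replicate 1 gave 0.087 and leaving out its partner gave 1.40. Col5a1, the chain present in nearly all type V trimers, was at 1796 and 2782 against 3838 and 3164 TPM (0.64 ± 0.33, and 0.31 to 0.96 with 1 library left out). Col5a2, its usual partner, was at 1580 and 1766 against 2206 and 1862 TPM (0.28 ± 0.23). In these 3 chains the Osr1cKO libraries also lay above both controls. In total 5 chains did so after scaling, in a background of 18.5% of genes above and 18.0% below.

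The most abundant chains overlapped between genotypes. Col1a1 was at 12404 and 22891 TPM in control and 25017 and 20485 in Osr1cKO. Col1a2 was at 4780 and 7141 against 7432 and 6291. Col3a1 was at 6401 and 12654 against 11930 and 13468. The first control library was the lowest of the 4 in each case. Their differences were 0.43 ± 0.61, 0.23 ± 0.39 and 0.50 ± 0.52, and the 95% interval for Col1a1 ran from -1.13 to 1.99. Col5a3, the third type V chain, was at 775 and 1302 against 1311 and 924 TPM (0.13 ± 0.34). Col11a2 was at 2.36 and 1.05 against 1.51 and 1.59 TPM, from 92 to 202 fragments, and was the 1 chain with a negative difference (-0.04 ± 0.27).

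These results leaned on single libraries. Without control replicate 1, 6 of 10 chains had a positive difference with a median of 0.14, namely 5 of the 9 that were positive before and Col11a2, which was negative before. In that fit 1 chain was called (Col27a1) and Col11a1 gave 0.53 with an unadjusted limma p of 0.0541. Without control replicate 2, 4 chains were called, Col5a1 and Col24a1 among them, while 7.32% of all genes were then called higher. Without Osr1cKO replicate 1 or 2 no chain was called, with unadjusted limma p of 0.111 and 0.0746 for Col11a1 and 0.0795 and 0.0838 for Col27a1.

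At 7 dpi, Col11a1 was again higher in Osr1cKO FAPs and Col24a1 with it, both at an unadjusted p only, and no abundant chain passed at either p. The study's threshold for this day, a fold change over 1.2 and an adjusted p under 0.1, called 0.0181% of 16578 genes higher and 0.0483% lower, and 0 of 10 chains. At the rule of 3 dpi, 5.30% of genes were higher and 5.83% lower, and 2 chains were higher and 0 lower. Across the 10 chains 5 differences were positive, with a median of 0.01, and the median over all genes was 0.01 as well.

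Col11a1 was at 48.7 and 49.8 TPM in control and 82.8 and 78.2 in Osr1cKO. The groups were far apart relative to the spread of either. The log2 difference was 0.57 ± 0.08 (limma, unadjusted p = 0.000557, adjusted p = 0.197), a 1.63-fold ratio of mean TPM, and by p the chain ranked 45 of 16578 genes. Fitted by limma-voom on recovered fragments, the same difference passed with an adjusted p of 0.0469.

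Col24a1 was at 18.2 and 13.5 TPM in control and 24 and 26.6 in Osr1cKO. The groups did not overlap. The log2 difference was 0.53 ± 0.16 (limma, unadjusted p = 0.0167, adjusted p = 0.318). With 1 library left out it ran from 0.32 to 0.74, and the unadjusted limma p was 0.0553 without control replicate 2 and 0.0607 without Osr1cKO replicate 2. Col11a2, the α2(XI) chain, was at 4.43 and 5.10 against 6.17 and 6.15 TPM, with a difference of 0.21 ± 0.14 that was not called.

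Col27a1, at 54.4 and 55.2 TPM in control and 60.7 and 54.0 in Osr1cKO, overlapped between genotypes at this day, with a difference of -0.06 ± 0.10. Deposited TPM ran higher in Osr1cKO over the whole transcriptome at 7 dpi, with a median difference of 0.11 before scaling. Without scaling the differences of Col27a1 and Col5a2 had the other sign, at 0.064 and 0.12.

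Col1a1 was at 24977 and 27784 TPM in control and 28083 and 24362 in Osr1cKO at 7 dpi, Col1a2 at 8675 and 9520 against 9225 and 8502, and Col3a1 at 16695 and 19203 against 17446 and 16702. All 3 overlapped in these deposited values. After scaling, Col1a2 and Col3a1 were lower in both Osr1cKO libraries than in both controls, and Col11a1, Col11a2 and Col24a1 higher, so that 3 chains lay above and 2 below, in a background of 23.3% of genes above and 22.5% below. The differences of Col1a1, Col1a2 and Col3a1 were -0.14 ± 0.41, -0.17 ± 0.24 and -0.20 ± 0.33, with 95% intervals from -1.16 to 0.88, from -0.76 to 0.43 and from -1.02 to 0.62, which leave room for changes of either sign. For type V, Col5a1 was at 3024 and 2752 against 3363 and 3059 TPM (0.02 ± 0.16), Col5a2 at 2150 and 2051 against 2303 and 2276 (-0.01 ± 0.13) and Col5a3 at 1212 and 1106 against 1386 and 1312 (0.09 ± 0.12). In deposited TPM all 3 were higher in both Osr1cKO libraries, as were 42.8% of all genes, and after scaling all 3 overlapped.

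**Figure D3:**
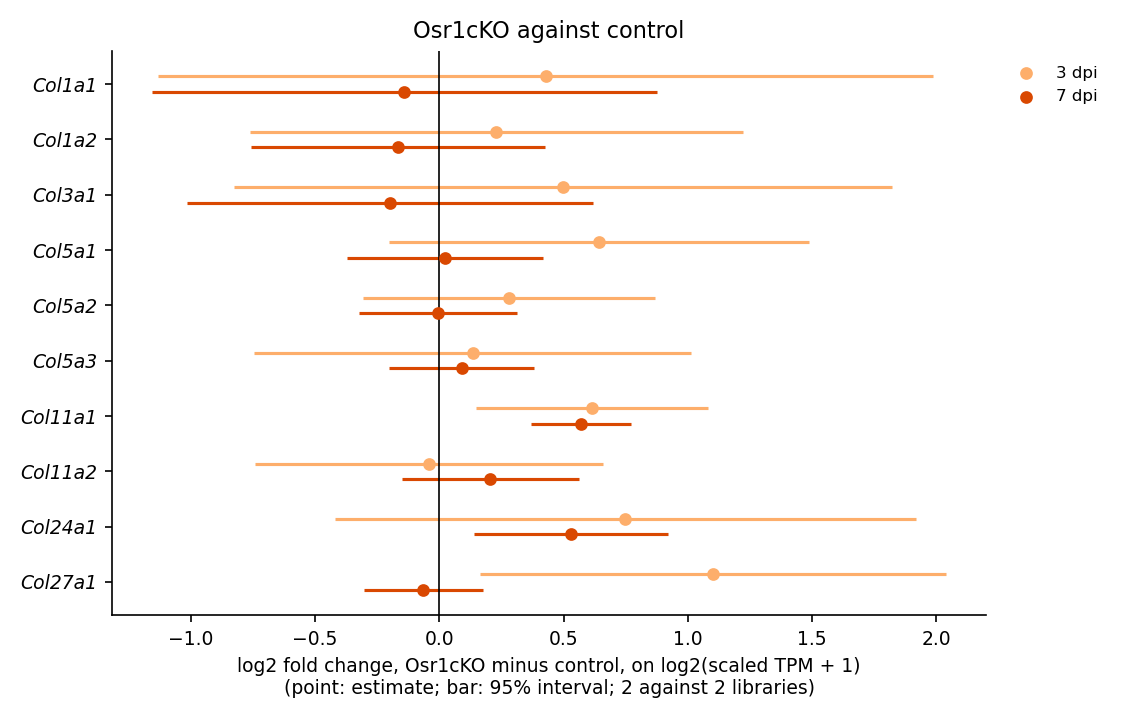
Log2 fold changes, Osr1cKO minus control, of the 10 chains at 3 dpi (light) and 7 dpi (dark) on log2(scaled TPM + 1); points are limma estimates and bars 95% intervals from 2 against 2 libraries. The intervals of Col11a1 lie above 0 at both days, that of Col27a1 at 3 dpi and that of Col24a1 at 7 dpi.

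Whether the genotype difference itself changed between days was tested as an interaction, fitted to the 8 libraries at once. At an adjusted p under 0.05, 0% of genes were called in either direction. At an unadjusted p under 0.05, 3.17% of 17365 genes were higher and 3.78% lower, with 0 and 1 of the 10 chains. The 1 chain was Col27a1, whose difference was smaller at 7 dpi by 1.21 ± 0.45 on the log2 scale (limma, unadjusted p = 0.0295, adjusted p = 0.698). For Col11a1 the interaction was -0.08 ± 0.18, with a 95% interval from -0.51 to 0.35.

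Between 3 and 7 dpi Col11a1, Col11a2 and Col24a1 rose in both genotypes and Col27a1 in control, and no abundant chain passed in the main fit. In control, 4 of 10 chains rose with a fold change over 1.2 and an adjusted p under 0.05 (Col11a1, Col11a2, Col24a1 and Col27a1) and 0 fell, in a background of 21.2% of 17365 genes higher and 24.1% lower. In Osr1cKO 3 rose (Col11a1, Col11a2 and Col24a1) and 0 fell, beside 17.4% and 23.6%. These 2 contrasts come from 1 fit and share its spread. All 10 chains had a positive difference in control (median 0.89) and 9 in Osr1cKO (median 0.30), while the median over all genes was 0.02 and -0.01.

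Col11a1 had the smallest p of all 17365 genes in both genotypes. Its mean TPM rose 30.1-fold in control, from the 1.51 and 1.77 TPM of 3 dpi to 48.7 and 49.8, and 26.6-fold in Osr1cKO, from 3.09 and 2.97 to 82.8 and 78.2. The log2 differences were 4.32 ± 0.13 (limma, adjusted p = 6.79e-05) and 4.24 ± 0.13 (adjusted p = 7.76e-05), ranks 18 and 9 from the highest signed difference downwards. Col11a2, whose chain is built into the same trimers, rose 2.79-fold and 3.98-fold in mean TPM, with log2 differences of 1.19 ± 0.23 (adjusted p = 0.00568, limma) and 1.41 ± 0.23 (adjusted p = 0.00356, limma).

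The third chain of cartilage type XI is encoded by Col2a1, which is also the type II gene. It was listed at 0.273 to 1.54 TPM over the 8 libraries, below Col11a1 in each. The chondrocyte list summed to 89.8 to 130 TPM at 3 dpi and 94.0 to 121 at 7 dpi. Most of this was Sox9, at 87.7 to 128 and 79.5 to 95.7 TPM, which hid higher values of other members at 7 dpi. Acan was at 0.108 to 1.31 TPM at 3 dpi and 6.22 to 18.2 at 7 dpi. Col9a2 was at 0.152 to 0.296 and then 4.94 to 6.56, and Col9a1 at 0 to 0.0151 and then 0.821 to 1.04. Of the 7 genes 2, Matn1 and Snorc, were at 0 in every library.

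Col24a1 rose 5.28-fold in control (2.26 ± 0.40, limma adjusted p = 0.00382) and 4.97-fold in Osr1cKO (2.01 ± 0.40, adjusted p = 0.00713). Its low control library at 3 dpi, with 1.31 TPM, was again replicate 1. Col27a1 rose 3.23-fold in control (1.80 ± 0.32, limma adjusted p = 0.00385). In Osr1cKO, where it started at 35.3 and 34.9 TPM, both libraries of 7 dpi were higher, at 60.7 and 54.0, but the difference of 0.59 ± 0.32 did not pass (adjusted p = 0.174).

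The abundant chains moved less. After scaling, Col1a1, Col1a2, Col3a1, Col5a1 and Col5a2 were higher in both control libraries of 7 dpi than in either of 3 dpi. Col5a3 overlapped. In Osr1cKO only Col1a2 and Col3a1 among the chains of types I, III and V were higher in this way, and the others overlapped. Of all genes, 37.6% were above and 36.9% below without overlap in control, and 37.2% and 39.4% in Osr1cKO. Col3a1 differed by 1.07 ± 0.51 in control (limma, adjusted p = 0.127) and by 0.32 ± 0.51 in Osr1cKO. Col1a1 differed by 0.72 ± 0.62 and 0.10 ± 0.62, and Col1a2 by 0.71 ± 0.37 and 0.27 ± 0.37. Col5a1 differed by 0.44 ± 0.29 in control and by -0.22 ± 0.29 in Osr1cKO, the only negative value, while Col5a2 and Col5a3 lay between 0.071 and 0.40. By limma-voom on recovered fragments Col1a2, Col3a1 and Col5a2 also passed in control, with log2 differences of 0.75, 1.10 and 0.44. They also passed with genes of mean TPM 1 or more, and Col1a2 and Col3a1 with robust eBayes. The share of all genes called for this contrast by these alternatives is not given here.

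**Figure D4:**
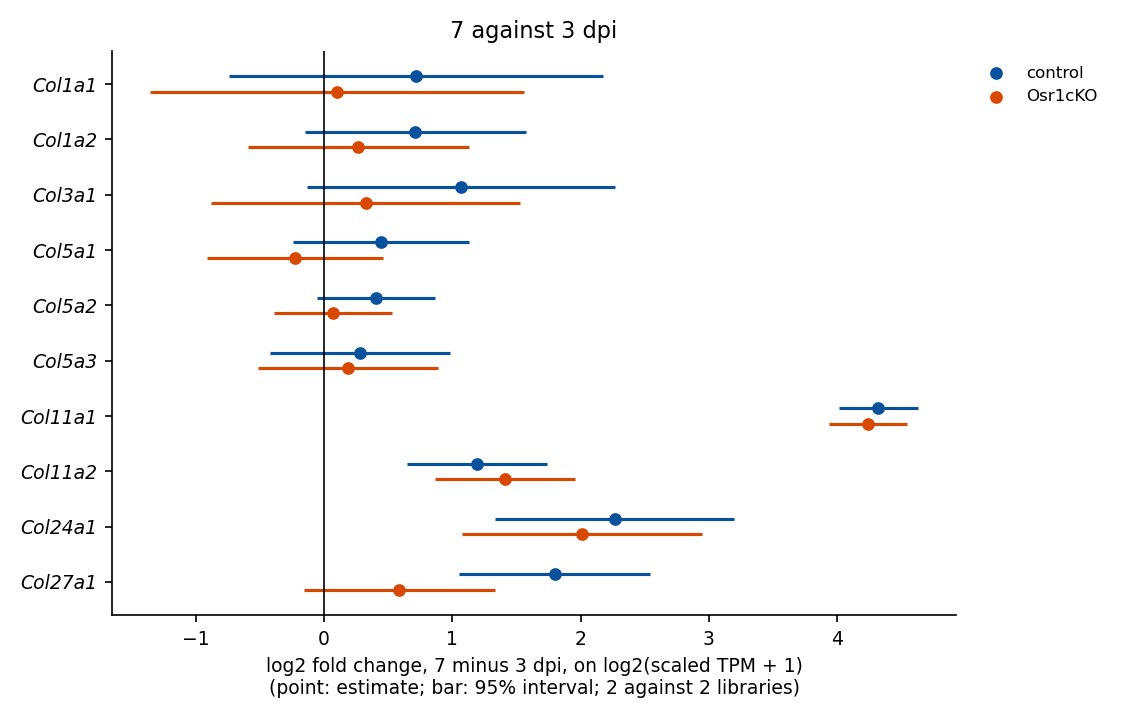
Log2 fold changes, 7 minus 3 dpi, of the 10 chains in control (blue) and Osr1cKO (orange) on log2(scaled TPM + 1); points are limma estimates and bars 95% intervals. Col11a1 lies at 4.32 and 4.24, and the intervals of the 6 chains of types I, III and V include 0 in both genotypes.

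Other quantities moved with day and genotype beside these chains. The 6 tenocyte markers summed to 523 and 776 TPM in control and 1765 and 1564 in Osr1cKO at 3 dpi, then to 2262 and 2487 against 2916 and 3330, mostly from Thbs4. At 3 dpi 2 of 6 were called higher and 1 lower (2.40% and 3.87% of all genes), and at 7 dpi 4 were higher at an unadjusted p (5.30%). With day 5 rose in control (21.2%) and 5 in Osr1cKO (17.4%). Scx, a tendon transcription factor, was at 0.720 and 2.35 against 5.83 and 2.89 TPM at 3 dpi and 8.55 and 7.27 against 12.9 and 26.3 at 7 dpi. The myofiber markers summed to 8.42 to 14.2 TPM at 3 dpi and 42.3 to 71.7 at 7 dpi, and 6 of them rose in control and 5 in Osr1cKO. Of the chondrocyte markers 3 rose in each genotype and 0 fell, against the same shares of all genes. The mitochondrial transcript mt-Co2 ranged from 0.460 to 3.35 TPM at 3 dpi and from 29.8 to 62.9 at 7 dpi. The part of these differences in the collagen results was not tested. In sorted bulk samples, more cells of a type and more RNA per cell cannot be told apart.

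The ratio of 2 chains within a library does not depend on how libraries are scaled, although its level depends on the transcript lengths the authors used. Each of 7 ratios was compared between genotypes within day and between days within genotype, with exact two-sided permutation tests of the mean log2 ratio over 36 arrangements. The smallest p such a test can give is 0.0556, so none of the 14 can pass 0.05, and the smallest adjusted p was 0.194.

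Col1a1/Col1a2 was 2.60 and 3.21 in control and 3.37 and 3.26 in Osr1cKO at 3 dpi, and 2.88, 2.92, 3.04 and 2.87 in the 4 libraries of 7 dpi. The lowest value was again that of control replicate 1. Both Osr1cKO libraries of 3 dpi were above both controls of that day and above both Osr1cKO libraries of 7 dpi, and the other comparisons overlapped. The genotypes differed by 0.11 on the log2 scale (exact permutation p = 0.222) and the days by -0.08 (exact permutation p = 0.444). All 8 values were above 2, but this level depends on the exon lengths, 6563 bases for Col1a1 and 12426 for Col1a2. In recovered fragments, control replicate 1 at 3 dpi had 1013879 for Col1a1 and 739728 for Col1a2. The level can therefore not be set against the type I trimer, which holds 2 α1(I) chains and 1 α2(I) chain.

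Col3a1/Col1a1 was 0.516 and 0.553 in control and 0.477 and 0.657 in Osr1cKO at 3 dpi, and 0.668, 0.691, 0.621 and 0.686 at 7 dpi. In control both libraries of 7 dpi were above both of 3 dpi, and in Osr1cKO they overlapped. The day difference was 0.28 (exact permutation p = 0.111) and the genotype difference 0.0048 (exact permutation p = 1).

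Within type V, Col5a1/Col5a2 was 1.14 and 1.58 in control and 1.74 and 1.70 in Osr1cKO at 3 dpi, and 1.34 to 1.46 in all 4 libraries of 7 dpi. Col5a3/Col5a1 was 0.432 and 0.468 in control and 0.342 and 0.292 in Osr1cKO at 3 dpi. The order of the genotypes was the other way at 7 dpi, where it was 0.401 and 0.402 in control and 0.412 and 0.429 in Osr1cKO. Pooled over days the genotype difference was -0.22 (exact permutation p = 0.333), and a difference of this contrast between days was not tested.

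Type V against type I, as Col5a1/Col1a1, was lower at 7 dpi than at 3 dpi in every pair of libraries that shared a genotype. It was 0.145 and 0.122 in control and 0.153 and 0.154 in Osr1cKO at 3 dpi, and 0.121, 0.0991, 0.120 and 0.126 at 7 dpi. The day difference was -0.30 on the log2 scale, with the smallest p this test allows (exact permutation p = 0.0556, adjusted p = 0.194).

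Type XI ratios differed most. Col11a1/Col5a1 was 0.000839 and 0.000636 in control and 0.000805 and 0.000939 in Osr1cKO at 3 dpi, and 0.0161 and 0.0181 against 0.0246 and 0.0256 at 7 dpi, a 26-fold day difference (exact permutation p = 0.0556). Col11a2/Col11a1 was 1.57 and 0.594 in control and 0.488 and 0.535 in Osr1cKO at 3 dpi, and 0.0910 and 0.102 against 0.0745 and 0.0786 at 7 dpi (exact permutation p = 0.0556). It was lower in Osr1cKO at both days without overlap, by -0.63 on the log2 scale (exact permutation p = 0.0556), and by -0.28 without control replicate 1 at 3 dpi, whose 1.57 was the highest value.

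**Figure D5:**
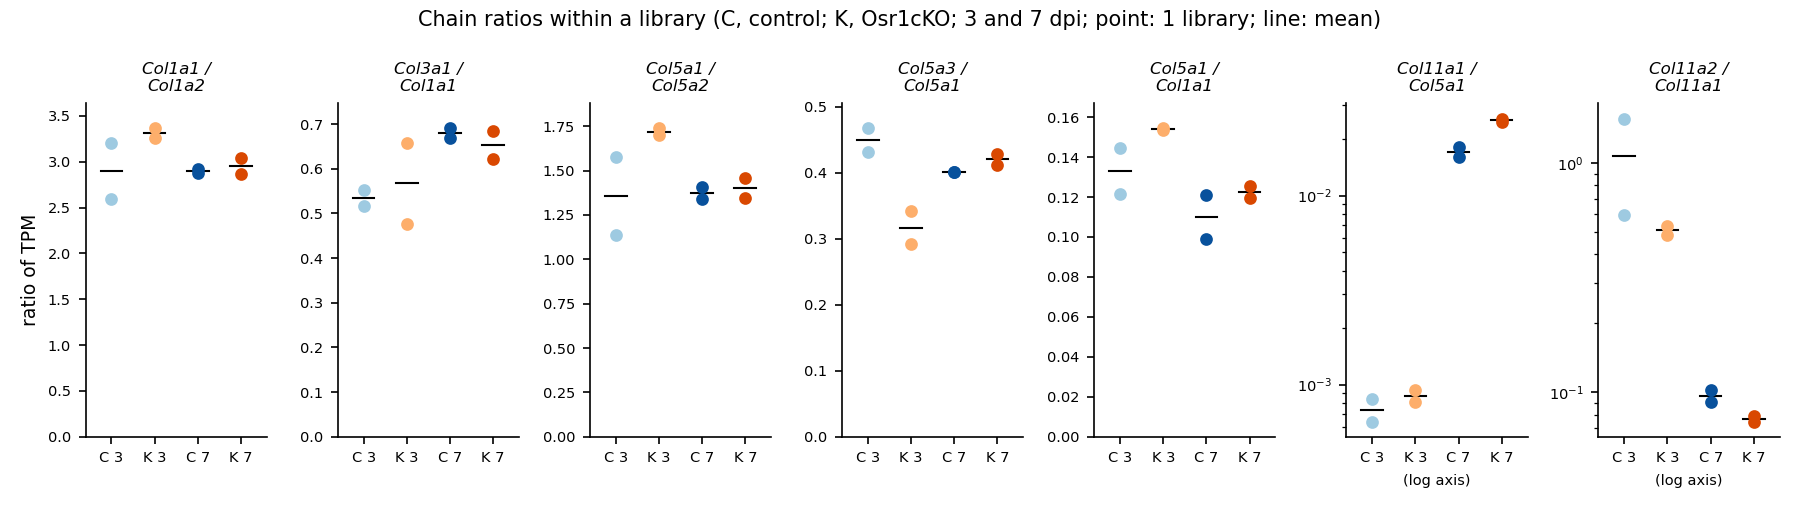
Ratios of TPM of 2 chains in each library, by genotype (C, control; K, Osr1cKO) and day, with a line at the mean; the first 5 panels start at 0 and the last 2 have log axes. Col1a1/Col1a2 lies between 2.60 and 3.37, while Col11a2/Col11a1 is at least 0.488 at 3 dpi and at most 0.102 at 7 dpi.

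The genes nearest in profile to Col1a1 were found among 8425 genes with a mean of at least 10 TPM, by the root mean square difference of centred log2(scaled TPM + 1) over the 8 libraries. They were Cd276 (0.114), Col1a2 (0.114), Insyn1 (0.118), Rhob (0.135) and Adam19 (0.139). Cd276, an immune checkpoint ligand, was at 49.6 TPM in control replicate 1 of 3 dpi and 95 to 125 in the other 7. Col1a2 was thus the second nearest gene to Col1a1, and the other abundant chains ranked between 32 (Col5a3) and 96 (Col5a2).

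The nearest to Col11a1 were further off, at 0.316 for Gm28661, 0.364 for mt-Co2, 0.380 for Gm29216, 0.413 for Gm10925 and 0.418 for Kera, the keratan sulfate proteoglycan keratocan. Kera was at 0.106 and 0.103 TPM in control and 1.07 and 0.435 in Osr1cKO at 3 dpi, and 26 and 36.3 against 39.2 and 70.8 at 7 dpi. mt-Co2 is mitochondrial, and at 3 dpi it had only 4 to 30 fragments. Of the other chains Col24a1 came nearest, at rank 77.

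The machinery that builds and remodels fibrils was counted in lists by role. The counts stand beside 2.40% of all genes called higher and 3.87% lower at 3 dpi, and 5.30% and 5.83% at an unadjusted p at 7 dpi. Of 15 genes that modify the helix, 3 were called higher and 0 lower at 3 dpi: Colgalt2, a galactosyltransferase (3.23 and 5.57 against 8.97 and 11.0 TPM, log2 difference 1.06), Plod2, the lysyl hydroxylase of telopeptides (133 and 198 against 275 and 266 TPM, 0.73), and Ppib, a prolyl isomerase (395 and 247 against 542 and 474 TPM, 0.70). The median log2 difference of the helix genes at 3 dpi was 0.26, and 0.14 to 0.36 with 1 library left out. Calls in these lists changed with the library left out, and so did the share of all genes called. Of 12 chaperone and secretion genes 0 were called. Their median log2 difference was 0.24, and 0.088 to 0.39 with 1 library left out. Mia3, which helps load procollagen into carriers, was at 103 and 117 against 127 and 148 TPM.

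The median log2 difference of the propeptide processing genes at 3 dpi was 0.17, and 0.068 to 0.28 with 1 library left out. Of 8 tested 1 was called at 3 dpi, Adamts3, a procollagen N-proteinase, at 13.2 and 12.1 against 17.5 and 18.0 TPM. At 7 dpi it was at 13.1 and 9.83 against 17.8 and 17.2 TPM, again higher at an unadjusted p, while Adamts2, its relative, was lower at 362 and 383 against 300.2 and 338 TPM. Neither passed the adjusted test at 7 dpi (limma, adjusted p = 0.351 and 0.274).

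Of 21 fibril surface partners 3 were called higher at 3 dpi (Col12a1, Aspn and Kera) and 1 lower (Comp). Col12a1, a collagen that bridges fibrils, was at 268 and 256 against 464 and 373 TPM at 3 dpi and 437 and 301 against 723 and 576 at 7 dpi, above control in both Osr1cKO libraries each time. Aspn, the small proteoglycan asporin, was at 278 and 383 against 847 and 537 TPM at 3 dpi. The median log2 difference of the partners at 7 dpi was -0.12, and -0.16 to -0.063 with 1 library left out. At an unadjusted p 2 partners were higher at 7 dpi and 3 lower. Among them Fmod, fibromodulin, which binds type I fibrils, was at 156 and 178 against 263 and 289 TPM (0.59 ± 0.09, limma adjusted p = 0.213). At 3 dpi the median log2 difference of the partners was 0.23, and 0.045 to 0.52 with 1 library left out.

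Crosslinking enzymes, collagen receptors and collagenases gave 0 calls at 3 dpi among 5, 8 and 5 tested. With 1 library left out their median log2 differences ran from -0.14 to 0.16, 0.019 to 0.075 and -0.20 to 0.32. Loxl2, a lysyl oxidase, was at 215 and 553 against 762 and 580 TPM at 3 dpi and at 481 and 440 against 641 and 668 at 7 dpi, where it was higher at an unadjusted p. The median log2 difference of the transcriptional inputs at 3 dpi was 0.030, and 0.0062 to 0.10 with 1 library left out. Of 22 such genes 2 were called at 3 dpi, both TGFβ ligands. These were Tgfb2 (61.4 and 49.3 against 86.3 and 73.9 TPM) and Tgfb3 (68.0 and 72.9 against 176 and 94.2 TPM). At 7 dpi Tgfb3 was lower, at 274 and 263 against 221 and 252 TPM, at an unadjusted p, and its difference changed by -1.23 ± 0.38 between the days (limma, unadjusted p = 0.0135, adjusted p = 0.633). None of the 8 lists had a gene that passed the adjusted test at 7 dpi.

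With day, the lists parted. Of the 21 surface partners 14 rose and 0 fell in control and 10 rose and 0 fell in Osr1cKO, with Fmod at 1.88 and 2.37 and Aspn at 2.11 and 1.15 on the log2 scale. Of 5 tested collagenases 4 rose in each genotype, with Mmp13 at 3.77 and 5.10. Of 5 crosslinking enzymes 4 fell in each, with Lox at -1.43 and -1.46. Of 12 chaperone and secretion genes 6 fell in control and 7 in Osr1cKO and 0 rose, with Sec13, a coat protein of export carriers, at -0.76 and -0.78. Helix modification was mixed, with 4 up and 4 down in control and 1 up and 6 down in Osr1cKO. For comparison, 21.2% and 17.4% of all genes rose and 24.1% and 23.6% fell.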

How the data were processed

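RNA was sequenced as stranded, polyA-selected, paired-end libraries. The labels and methods differ on the instrument for each day, so instrument by day was not settled. The authors aligned reads to mm10 with STAR, normalised counts with DESeq2 and deposited TPM per gene symbol; the counter, its annotation and whether it used strand are not given in the sources used here. Exons of Col5a1 overlap 2 genes on the other strand by 99 and 113 bases, and reads there can be assigned only if strand was used. Exons of Col3a1 share 141 bases with the miRNA gene Gm47302 on the same strand, which was at 0 TPM in every library.

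Of 55385 entries per library, 109 further entries of 106 repeated symbols were left out. With GENCODE release 21 lengths, TPM below 50 fragments came out whole, to a tolerance of 0.02, for 98.7% to 98.9% of values, which gave depth and fragments; counting error limits chains with few. Libraries were brought to a common scale by trimmed log ratios (30% of ratios and 5% of means trimmed), a pseudocount of 1 added, and limma 3.58.1 (R 4.3.3; lmFit, eBayes with trend) fitted, after keeping genes with 10 fragments in 2 libraries and 15 in all (30 in all for 8 libraries), or a mean TPM of 1 for symbols without a length. Each day was fitted alone, and days and the interaction over all 8 libraries; p-values were adjusted over all genes tested. The procedure was tested on simulated data. Python 3.11.15, pandas 2.3.3, NumPy 2.4.6 and SciPy 1.17.1 were used for the rest.

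Chains, lists and comparisons were chosen with earlier results of these data known. Named genes were the 10 chains, the 5 nearest profiles to Col1a1 and Col11a1 and, from each list, up to 3 genes of smallest p at each day whose genotypes did not overlap; others named with values, counted calls and markers, were added after their values were seen. Libraries with 1 number came from different mice and deviated together with r = -0.13 at 3 dpi and 0.06 at 7 dpi, so numbers were not taken as pairs. With 2 libraries per group, p-values rest on few degrees of freedom. Alternatives were other scalings, filters, a pseudocount of 0.1, limma-voom, robust eBayes, the replicate block and leaving out each library.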

Additional observations from a re-analysis of the deposited data

Results flagged for a closer look

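Col27a1 differed between the days in its genotype contrast. The log2 difference between Osr1cKO and control was 1.10 at 3 dpi and -0.06 at 7 dpi, an interaction of -1.21 (limma, unadjusted p = 0.0295, adjusted p = 0.698) that failed correction over 17365 genes. Both Osr1cKO libraries were above both controls at 3 dpi, and the genotypes overlapped at 7 dpi. Without control replicate 1 of 3 dpi, the library that stood apart, the interaction was -0.64 (limma, adjusted p = 0.270), and without control replicate 2 it was -1.78 (limma, adjusted p = 0.0361). Without any 1 of the other 6 libraries it stayed between -1.09 and -1.32, and no adjusted p passed. At an unadjusted p under 0.05, 3.78% of all genes had a negative interaction. Mice per library also differed between the days, and their part in this was not tested.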

How the results depend on the processing

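With 2 libraries per group, depth did not limit the abundant chains (at least 65753 fragments each), while Col11a2 had 92 to 408. Of 10 chains, 2 were called at 3 dpi, against 0 with no filter, 0 at an adjusted p under 0.1, 1 with the replicate block, and 0 to 4 with 1 library left out. At 7 dpi 0 were called, against 1 by limma-voom, 2 at an unadjusted p under 0.05 and 0 to 2 with 1 library left out. For day in control 4 were called, against 7 with genes of mean TPM 1 or more, 7 by limma-voom and 4 to 6 with 1 library left out; for day in Osr1cKO 3, and 3 to 4; for the interaction 0, and 0 to 1. For the counts of 7, by the mean TPM filter and by limma-voom, the share of all genes called is not given here. The replicate block, in which libraries with 1 number are paired, ended the 3 dpi call of Col11a1. Its unadjusted limma p there went from 0.0195 to 0.0505, just past the limit. The call of Col11a2 for day in control also ended (limma, adjusted p = 0.0535). For the days this block was nested in day and its contrast did not compare group means. The Col11a2 estimate itself moved from 1.19 to 1.06, so that change does not measure what pairing does. The block changed no other call of a chain. For chain ratios 0 of 14 passed with or without it. Crossing the pairs at 3 dpi, chosen after seeing the data, called 3 chains and 1168 genes. The causes of these changes were not tested.

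Over all genes, calls at 3 dpi were 985, against 1832 in a fit of all 8 libraries and 371 to 2804 with 1 library left out; at 7 dpi 11, against 0 without scaling, at a mean TPM filter of 1, with no filter or in a fit of all 8 libraries, 27 with the block, 390 by limma-voom and 7 to 468 with 1 library left out. With the block, day calls were 4829 in control and 3704 in Osr1cKO, against 7861 and 7106 without it. Its day contrast did not compare group means, so these counts do not measure what pairing does.

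Uncalled differences turned sign. Without scaling, at 7 dpi Col5a2 gave 0.12 and Col27a1 0.064, and the interaction of Col5a3 gave 0.089 and of Col11a1 0.084, where the interaction median over all genes was 0.11; by limma-voom Col5a1 at 7 dpi gave -0.026. With 1 library left out the log2 ranges were, at 3 dpi, -0.028 to 0.87 for Col1a1, -0.074 to 0.52 for Col1a2, -0.0093 to 0.99 for Col3a1, -0.25 to 0.51 for Col5a3 and -0.40 to 0.31 for Col11a2; at 7 dpi, -0.052 to 0.035 for Col5a2, -0.083 to 0.12 for Col5a1 and -0.18 to 0.044 for Col27a1; by day, -0.14 to 0.69 for Col5a3 in control, and -0.060 to 0.26, -0.071 to 0.21 and -0.083 to 0.46 for Col1a1, Col5a2 and Col5a3 in Osr1cKO; for the interaction, -0.50 to 0.33 for Col5a3, -0.18 to 0.021 for Col11a1, -0.11 to 0.54 for Col11a2 and -0.93 to 0.43 for Col24a1.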
